A study of Caenorhabditis elegans with 12 samples.

Results

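Small RNAs of the long-lived age-1; rde-4 double mutant of the nematode Caenorhabditis elegans were compared with those of the wild type. The 3 age-1; rde-4 libraries and the 3 WT libraries were joined by gene from separate tables of antisense counts, which gives 6 of the 12 libraries of the series and all 32238 genes counted. The double mutant carries age-1(hx546) and rde-4(ne301), and the WT strain is N2. The other 6 libraries, 3 each of rde-4(ne301) and age-1(hx546), carry 1 of the mutations each and were used to place the double mutant among the 4 strains. Each library came from a population of whole hermaphrodites grown at 20 °C to the first day of adulthood, before embryos were visible, and each strain represents a single allele or a single combination of alleles. The labels call the 3 samples of a strain biological replicates.

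RDE-4 is a double-stranded RNA-binding protein that helps the nuclease Dicer to cut long double-stranded RNA into small interfering RNAs (siRNAs). Endogenous siRNAs made with RDE-4 are loaded on the Argonaute ERGO-1, which acts in oocytes and embryos mostly on duplicated and poorly conserved genes, or on ALG-3 and ALG-4, which act in the germline while it makes sperm. AGE-1 is the catalytic subunit of phosphatidylinositol 3-kinase in insulin/IGF-1 signaling (IIS), and hx546 reduces its function without removing it, which extends lifespan. The libraries favored RNAs with a 5′ monophosphate, such as Dicer products and microRNAs (miRNAs), over the secondary siRNAs that carry a triphosphate. An antisense count is the number of reads on the strand opposite to a gene. For a gene that lies opposite a miRNA, transfer RNA (tRNA), small nuclear RNA (snRNA), small nucleolar RNA (snoRNA) or ribosomal RNA (rRNA) gene, it also counts the sense reads of that RNA, which cannot be told from siRNAs against the gene.

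Antisense totals were 3201678, 2928614 and 2993967 counts in age-1; rde-4 libraries, against 2764931, 2731018 and 2639216 counts in WT libraries. The totals did not overlap, with a ratio of 1.12 (exact permutation test, two-sided, p = 0.1, the smallest p that 3 against 3 libraries can give). Antisense counts could not check the labels, because rde-4 itself held 4, 1 and 3 counts in age-1; rde-4 libraries, against 3, 8 and 11 counts in WT libraries, and age-1 held 5, 5 and 9 counts, against 4, 15 and 7 counts in WT libraries. Both genes were below the filter on low counts. The first age-1; rde-4 library covered 11111 genes and the first WT library 13847, fewer than the 13169 to 13810 and the 15574 to 15773 genes of the other libraries of their strains.

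The composition of the libraries differed between the strains. Genes with no gene on the opposite strand, where an antisense read is a candidate siRNA, took 2.54, 3.08 and 3.04% of antisense counts in age-1; rde-4 libraries, against 6.25, 9.3 and 8.93% in WT libraries. The means were 2.89 ± 0.298% in age-1; rde-4 and 8.16 ± 1.66% in WT (SD, n = 3 each), a ratio of 0.354, with no overlap between the strains (exact permutation p = 0.1, adjusted p = 0.12 over 7 classes). Counted per read opposite a miRNA gene, the ratio was 0.447, again with no overlap. The mean share of these genes was 4.73 ± 0.379% in rde-4 libraries and 10.8 ± 0.938% in age-1 libraries, so that the double mutant had the lowest of the 4 means. Loci opposite miRNA genes took most counts in every library, with 60.2, 64.1 and 63.0% in age-1; rde-4, against 81.7, 76.5 and 80.2% in WT.

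Loci opposite tRNA, rRNA and snRNA genes held larger shares. Loci opposite tRNA genes held 28.4, 19.5 and 17.7% of counts in age-1; rde-4 libraries, against 5.53, 8.27 and 5.04% in WT libraries, a ratio of 3.48. Loci opposite rRNA genes held 4.88, 8.62 and 10.8%, against 1.92, 1.22 and 1.14% in WT, a ratio of 5.67. Loci opposite snRNA genes held 0.187, 0.325 and 0.326%, against 0.107, 0.0771 and 0.0766% in WT, a ratio of 3.21. None of these 3 classes overlapped between age-1; rde-4 and WT, and each reached the smallest exact permutation p of 0.1. In rde-4 libraries the tRNA share was 20.6, 21.6 and 14.3%, and in age-1 libraries 9.24, 23.8 and 5.63%, each overlapping age-1; rde-4. The rRNA and snRNA shares of both single mutants lay below those of every age-1; rde-4 library. Loci opposite snoRNA genes held 0.625, 0.449 and 0.637% in age-1; rde-4, against 1.15, 0.883 and 0.638% in WT, which did not overlap as a share but did per read opposite a miRNA gene (ratio 0.819, exact permutation p = 0.4). Loci opposite any other gene had overlapping shares, with a ratio of 1.08 (exact permutation p = 0.6). Per read opposite a miRNA gene their ratio was 1.36, with no overlap (exact permutation p = 0.1).

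**Figure D1:**
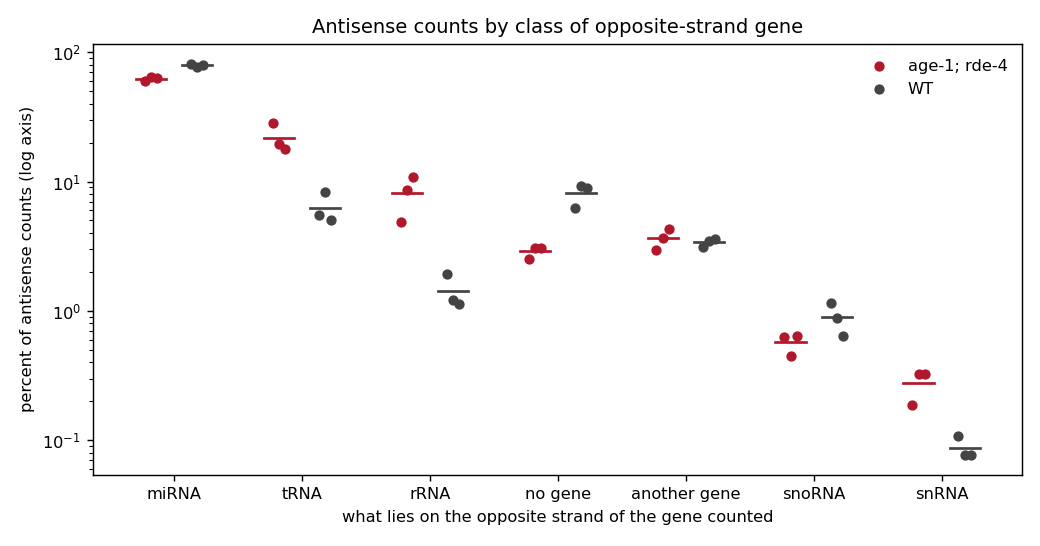
Percent of antisense counts (log axis) held by genes grouped by what lies on their opposite strand, in the 3 age-1; rde-4 libraries (red) and the 3 WT libraries (grey), with points for libraries and lines for means. Genes opposite no gene sit at 2.54 to 3.08% in age-1; rde-4, below the 6.25 to 9.3% of WT, and loci opposite tRNA, rRNA and snRNA genes are higher in age-1; rde-4 in every library.

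This difference in composition sets what a fold change is measured against. Counts were tested with edgeR's quasi-likelihood test, scaled by trimmed means (TMM), and a gene was called where the Benjamini-Hochberg adjusted p over all tested genes was under 0.05. Of 3977 tested genes, 590 were higher in age-1; rde-4 (14.8%) and 508 were lower (12.8%), with a median log2 fold change of -0.02. Scaled by library totals, the median was -1.40, and 322 genes were higher (8.10%) and 2516 lower (63.3%). Scaled by the counts opposite miRNA genes, the median was -1.06, and 361 were higher (9.08%) and 1826 lower (45.9%). The share of calls that were higher was thus 53.7% with TMM, 11.3% with library totals and 16.5% with counts opposite miRNA genes. A TMM fold change is therefore a change relative to the typical tested gene, whose count was itself lower per library total. Both other scalings move all genes down together, so that the 508 genes called lower with TMM stay lower under them, which says nothing of which calls are sounder. Of the 590 called higher, 322 were higher under all 3, and 76 turned negative with library totals. Values below are TMM log2 fold changes of age-1; rde-4 over WT with their standard errors (SE) and edgeR adjusted p-values, and the value with library totals is given where the direction depends on it.

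Calls were unequally spread over the classes. Among 2573 tested genes with no opposite gene, 129 were higher and 409 lower, and 13 of the 129 were higher under all 3 scalings. Among these genes, protein-coding genes made up most calls, with 108 higher and 356 lower of 2384. Long non-coding RNA genes had 1 higher and 14 lower of 23, with a median of -4.36, and pseudogenes 12 higher and 24 lower of 125. The falls came from every chromosome, from 66 of 498 tested genes on III (13.3%) to 104 of 565 on IV (18.4%), beside 15.9% of all genes with no opposite gene. Loci opposite tRNA genes were the reverse, with 327 higher and 0 lower of 336 (265 higher and 1 lower with library totals). Loci opposite snRNA genes had 22 higher and 0 lower of 31, and 17 higher and 6 lower with library totals. The median of the tRNA loci was 2.92 with TMM and 1.53 with library totals.

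**Figure D2:**
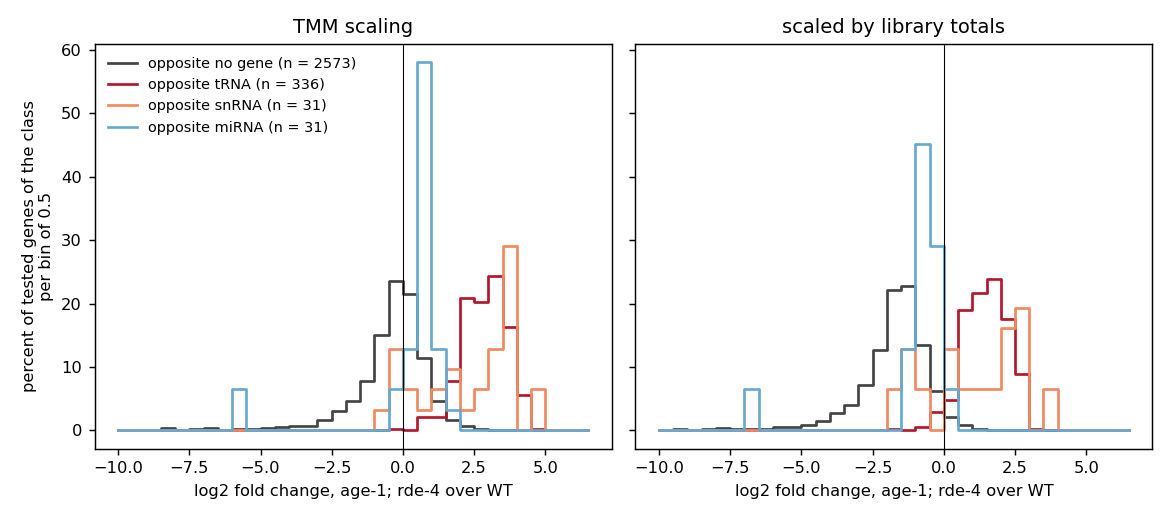
Distribution of log2 fold changes of age-1; rde-4 over WT (x axis) as the percent of tested genes in bins of 0.5 (y axis), for genes opposite no gene and for loci opposite tRNA, snRNA and miRNA genes, with TMM scaling (left) and library totals (right). The bulk of genes with no opposite gene lies at a median of -0.20 with TMM and -1.59 with library totals, and loci opposite tRNA genes lie above 0 under both, at medians of 2.92 and 1.53.

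Known targets of ERGO-1 were the most depleted list. All 16 tested members of 18 were lower in age-1; rde-4, with log2 fold changes from -9.21 to -2.28 and a median of -5.08 (-5.0 with genes at 0 set to their bound), where 12.8% of all tested genes were lower. Their summed counts were 25, 32 and 16 in age-1; rde-4 libraries, against 3212, 2023 and 3616 in WT libraries. As a share of all counts they were 136-fold lower, with no overlap (exact permutation p = 0.1, adjusted p = 0.11 over 22 lists), and the ratio per count of genes with no opposite gene was 0.02. The list was assembled with the annotation of the study in view, so its direction is not independent evidence. Of the 16 tested members, 4 have an opposite gene. As a read could have up to 50 hits, related members may share reads.

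K02E2.6, a protein-coding gene often used as a read-out of the ERGO-1 pathway, at V:20380561-20382036, held 1, 1 and 0 counts in age-1; rde-4 libraries, against 724, 553 and 910 counts in WT libraries. This was 465-fold lower (exact 95% interval 129 to 3844), with a log2 fold change of -8.77 (SE 0.67, edgeR adjusted p = 3.3e-07). The groups were far apart, with at most a single read in any double mutant library. Where a gene had 1 to 3 counts in a group, the fold is the TMM-scaled ratio of summed counts with a counting interval, and where it had none the fold is a lower limit that takes 3 counts for the group in place of 0. C44B11.6, a short protein-coding gene at III:3153148-3153336, held 0 counts in all 3 age-1; rde-4 libraries, against 109, 110 and 82 counts in WT libraries, at least 42.7-fold lower. W04B5.1, annotated as a pseudogene at III:2428204-2429430, held 1, 0 and 0 counts in age-1; rde-4, against 181, 218 and 527 counts in WT, 394-fold lower (interval 70.5 to 15579). Y37E11B.2, on chromosome IV, held 3, 2 and 1 counts in age-1; rde-4, against 551, 336 and 484 counts in WT (log2 fold change -6.64, SE 0.59, edgeR adjusted p = 8.4e-07). It overlaps another gene on the opposite strand, so that its reads cannot be given to it alone.

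Members with smaller differences also passed. W05H12.2 had the smallest, at -2.28, and ZK402.5 was at -3.71. E01G4.7 held 5, 7 and 2 counts in age-1; rde-4 libraries, against 414, 143 and 400 counts in WT libraries (log2 fold change -4.96). K06B9.6 held 3, 5 and 1 counts in age-1; rde-4, against 126, 123 and 122 counts in WT (-4.15). No library of the double mutant reached the lowest WT library in either gene. C36A4.11 was 34.5-fold lower (interval 11.7 to 168). F39E9.7, at -5.72, lies opposite a miRNA gene, so its 2, 3 and 2 counts in age-1; rde-4, against 372, 157 and 290 counts in WT, cannot be assigned to either gene.

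Long intergenic non-coding RNA genes (lincRNAs), which are transcribed between protein-coding genes, were lower with a few exceptions. Of 22 tested members of 170, 15 were lower and 1 was higher, beside 12.8% and 14.8% of all tested genes, with a median of -4.69 (-3.44 with genes at 0 set to their bound). linc-113 was the member called higher, at 1.42, and that call was lost with library totals, where 19 of 22 were lower and none higher. Summed counts were 445, 601 and 507 in age-1; rde-4 libraries, against 3339, 2584 and 3793 in WT libraries, a share of all counts 6.99-fold lower with no overlap (exact permutation p = 0.1), or a ratio of 0.388 per count of genes with no opposite gene. linc-59, at V:16319028-16320419, held 1, 0 and 0 counts in age-1; rde-4, against 337, 398 and 409 counts in WT, 487-fold lower (interval 87.2 to 19243). It shares its reads with the overlapping gene F57G8.14, and piRNA genes lie opposite both linc-59 and linc-22, so that their reads cannot be assigned with certainty. linc-22, at X:9069138-9073735, held 4, 5 and 2 counts in age-1; rde-4, against 476, 453 and 372 counts in WT (log2 fold change -5.68, SE 0.51, edgeR adjusted p = 8.4e-07). linc-66 held 1, 0 and 0 counts in age-1; rde-4, against 61, 105 and 112 counts in WT, 118-fold lower, and linc-17 was 55.3-fold lower. The loss was thus almost complete at these lincRNAs, while linc-36, linc-7, linc-6, linc-29, linc-63 and linc-91 lay between -0.72 and 0.94 and were not called.

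Beyond the lists, a set of loci was nearly emptied of antisense reads. Of the tested genes, 25 held 0 counts in all 3 age-1; rde-4 libraries, with 37 to 1487 counts summed over WT libraries, and 0 genes were at 0 in all WT libraries. They comprised 8 lncRNA genes, 3 other non-coding RNA genes, 8 protein-coding genes, 5 pseudogenes and 1 snoRNA gene, and 22 of them had no opposite gene. Among genes with no opposite gene, 32 had at least 100 counts over WT libraries and at most 3 over age-1; rde-4 libraries, of which 14 were protein-coding, 9 pseudogenes, 6 lncRNA genes and 3 other non-coding RNA genes. Tested genes with no opposite gene were 2384 protein-coding, 125 pseudogenes, 23 lncRNA genes and 30 other non-coding RNA genes. Of these 32, chromosome I held 4 beside 546 tested genes with no opposite gene, II 3 beside 490 and III 7 beside 498. Chromosome IV held 6 beside 565, V 6 beside 379 and X 6 beside 95.

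The largest falls by the rule for named genes were mostly of this kind. Y116F11A.1, at V:19730580-19732242, held 0 counts in every age-1; rde-4 library, against 870, 116 and 501 counts in WT libraries, at least 211-fold lower. The WT libraries differed widely here, and none came near 0. Y116F11A.1 held 2, 1 and 2 counts in rde-4 libraries and 85, 120 and 106 in age-1 libraries. ZK380.5, a pseudogene at X:1648068-1649217, held 0 counts in each age-1; rde-4 library, against 172, 151 and 220 counts in WT, at least 77.0-fold lower. Y17D7C.6, at V:18709810-18711856, held 0 counts in each age-1; rde-4 library, against 145, 172 and 220 counts in WT, at least 76.2-fold lower. Y17D7B.4, also on V, was at least 34.3-fold lower, F36H12.5 on IV at least 26.8-fold lower and the pseudogene F56D6.16 on IV at least 25.8-fold lower. In rde-4 libraries ZK380.5 held 0, 1 and 0 counts, Y17D7C.6 2, 0 and 2 and F36H12.5 1, 1 and 5. Y17D7B.4 and F56D6.16 held 0 counts in each rde-4 library. In age-1 libraries ZK380.5 held 139, 183 and 184 counts, Y17D7C.6 158, 194 and 138 and F36H12.5 133, 100 and 68. Outside that rule, and picked after their values were seen, W04B5.8 held 1, 1 and 1 counts in age-1; rde-4, against 502, 528 and 1056 counts in WT (296-fold lower, interval 101 to 1436), and Y116A8B.1 held 0, 2 and 1 counts, against 353, 92 and 217 counts in WT (93.9-fold lower, interval 32.0 to 456). W04B5.8, at III:2426316-2429381, overlaps the ERGO-1 target W04B5.1 in position, so that the pair may share reads and is not counted as separate evidence. W04B5.8 held 0, 0 and 3 counts in rde-4 libraries and 575, 714 and 1093 in age-1 libraries. Y116A8B.1 held 2, 1 and 4 counts in rde-4 libraries and 71, 41 and 41 in age-1 libraries.

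Single members of the F-box families, large and fast-evolving families of presumed substrate adaptors for protein breakdown, were also emptied. fbxa-3, at II:1818889-1820874, held 1, 0 and 1 counts in age-1; rde-4 libraries, against 516, 190 and 1035 counts in WT libraries, 370.4-fold lower (interval 102 to 3061). It overlaps linc-16, which had almost the same counts, so the pair holds 1 set of reads, and both lie opposite fbxc-19, so that these may be sense reads of that gene. fbxc-37, a pseudogene on X, held 0, 0 and 1 counts in age-1; rde-4, against 394, 76 and 306 counts in WT, 330.2-fold lower (interval 59.1 to 13058). fbxc-38 was at least 15.6-fold lower and fbxa-52 at least 5.25-fold lower. In rde-4 libraries fbxa-3 held 3, 7 and 11 counts and fbxc-37 3, 0 and 4. In age-1 libraries fbxa-3 held 153, 390 and 266 counts and fbxc-37 36, 39 and 42. Over the whole F-box A family, 2 of 19 tested members were higher and 2 lower, near the 14.8% and 12.8% of all tested genes, with a median of 0.46 that turned to -0.89 with library totals. In the F-box B and C families 1 of 11 was higher and 2 lower, also near those shares, with a median of 0.54, or -0.77 with library totals. None of the 12 tested BTB and MATH genes, another adaptor family, was called (DESeq2 called 0 higher and 1 lower of 22, and 1 higher and 1 lower passed an unadjusted edgeR p of 0.05).

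Genes of sperm were the other group with fewer antisense reads in the double mutant. The Major Sperm Proteins (MSPs) form the cytoskeleton of the crawling nematode sperm, and their summed counts were 263, 126 and 96 in age-1; rde-4 libraries, against 547, 998 and 789 in WT libraries, a share of all counts 5.48-fold lower with no overlap (exact permutation p = 0.1). All genes with no opposite gene had a ratio of 0.354, and per count of those genes the MSP ratio was 0.544, with overlapping libraries (exact permutation p = 0.2). By gene, 6 of 23 tested members of 35 were lower and 0 higher, with a median of -1.11, beside 12.8% of all genes lower. With library totals all 23 were lower, where 63.3% of all genes were. The number called lower was 13 without the first age-1; rde-4 library, which had the highest MSP sum of the 3, and 3 without either the second or the third. msp-57, at IV:5062578-5062961, held 1, 1 and 1 counts in age-1; rde-4, against 12, 21 and 23 counts in WT, 7.94-fold lower (interval 2.58 to 39.7, edgeR adjusted p = 0.0013). msp-50 held 4, 2 and 0 counts, against 24, 28 and 32 in WT (log2 fold change -2.54, SE 0.62, edgeR adjusted p = 0.004). The msp genes are near-identical copies, and a read with several hits may be counted on any of them, so these values belong to the family rather than to single genes.

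The small sperm-specific families P (ssp) and Q (ssq) were lower as well. In the P family, whose members carry an MSP domain, 7 of 11 tested genes were lower and 0 higher, beside 12.8% of all tested genes lower, with a median of -1.65 and sums of 497, 252 and 274 counts in age-1; rde-4, against 1395, 2030 and 1849 counts in WT. Without the second or without the third age-1; rde-4 library, 4 were called lower. ssp-11 held 5, 5 and 2 counts in age-1; rde-4, against 58, 88 and 71 counts in WT (log2 fold change -2.92, SE 0.45, edgeR adjusted p = 5.7e-05). ssp-9 held 11, 5 and 8 counts, against 59, 84 and 90 in WT (-2.02), and ssp-19 held 1, 0 and 1 counts, against 15, 20 and 17 in WT, 11.1-fold lower (interval 2.91 to 93.8). In each of these 3 genes every age-1; rde-4 library was below every WT library. The same held for the summed counts of all genes with no opposite gene. In the Q family 3 of 4 genes were lower, beside the same 12.8%, with a median of -1.3, and none of these 3 calls held without the second age-1; rde-4 library.

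The MSP-domain genes ssp-16, C25D7.1 and dct-9 are 3 of those that the study singled out on these strains, so their direction here is not independent evidence. ssp-16, on chromosome I, held 88, 24 and 23 counts in age-1; rde-4 libraries, against 287, 442 and 320 counts in WT libraries (log2 fold change -1.65, SE 0.50, edgeR adjusted p = 0.017). The first double mutant library stood above the other 2, and the call was lost without the second or the third, over a range of -2.74 to -1.28. C25D7.1, the locus name of melo-3, held 26, 21 and 18 counts in age-1; rde-4, against 48, 105 and 83 counts in WT, and was not called relative to the typical gene (-0.58, edgeR adjusted p = 0.28), though it was with library totals (-2.03, edgeR adjusted p = 9.0e-05). dct-9 held 22, 12 and 18 counts in age-1; rde-4, against 18, 47 and 33 counts in WT, with overlapping libraries. Its value was 0.38 with TMM (edgeR adjusted p = 0.54) and -1.08 with library totals (edgeR adjusted p = 0.043), so its direction depended on the scaling.

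Among genes that act in spermatogenesis, 12 of 24 tested members of 39 were lower and 1 was higher, beside 12.8% and 14.8% of all tested genes, with a median of -1.07. The number lower was 7 without the second WT library, 6 without the second age-1; rde-4 library and 7 without the third. smz-1 and smz-2 encode sperm proteins with a PDZ domain that act in meiosis. smz-1, at IV:12455050-12456299, held 43, 16 and 13 counts in age-1; rde-4 libraries, against 600, 847 and 606 counts in WT libraries (log2 fold change -3.55, SE 0.50, edgeR adjusted p = 2.1e-05). smz-2 held 11, 3 and 4 counts, against 108 to 131 in WT (-3.06, SE 0.48, edgeR adjusted p = 6.8e-05). spe-10, needed for the membranous organelles of sperm, held 8, 6 and 7 counts in age-1; rde-4, against 57, 106 and 84 counts in WT (-2.28, SE 0.40, edgeR adjusted p = 2.0e-04). Leaving out a library did not remove these 3 calls. spe-4, a presenilin of the same organelles, held 4, 2 and 2 counts in age-1; rde-4, against 14, 40 and 21 counts in WT (-1.92, edgeR adjusted p = 0.011), and its call was lost without the second WT or the second or the third age-1; rde-4 library. gsp-3, a sperm protein phosphatase, was at -2.18 and wee-1.3, a kinase that holds meiosis in check, at -1.85. spe-29, which acts in sperm activation, was the member called higher, with 59, 47 and 54 counts in age-1; rde-4, against 5, 25 and 22 counts in WT (2.92, edgeR adjusted p = 3.5e-05, and 1.44 with library totals). It lies opposite gon-1, so those reads may be sense reads of gon-1.

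The nematode-specific peptide families (nsp), many of whose members are expressed in sperm-making germline, had 6 of 7 tested genes lower and 0 higher, beside 12.8% of all tested genes lower, with a median of -2.63. Their sums were 42, 29 and 26 counts in age-1; rde-4 libraries, against 233, 393 and 311 counts in WT libraries, a share of all counts 10.9-fold lower, or a ratio of 0.267 per count of genes with no opposite gene. nspd-1 held 0 counts in each age-1; rde-4 library, against 36, 41 and 25 counts in WT, at least 14.5-fold lower. nspd-6 held 4, 2 and 0 counts, against 40, 56 and 43 in WT (log2 fold change -3.25), and nspd-3 held 5, 3 and 4, against 29, 69 and 64 in WT (-2.46). Near-identical nspd copies can share reads, as in the msp family. In whole worms, fewer germ cells making sperm and fewer siRNAs per cell cannot be told apart. Antisense counts over genes of other tissues are not a measure of how much of a tissue was present.

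**Figure D3:**
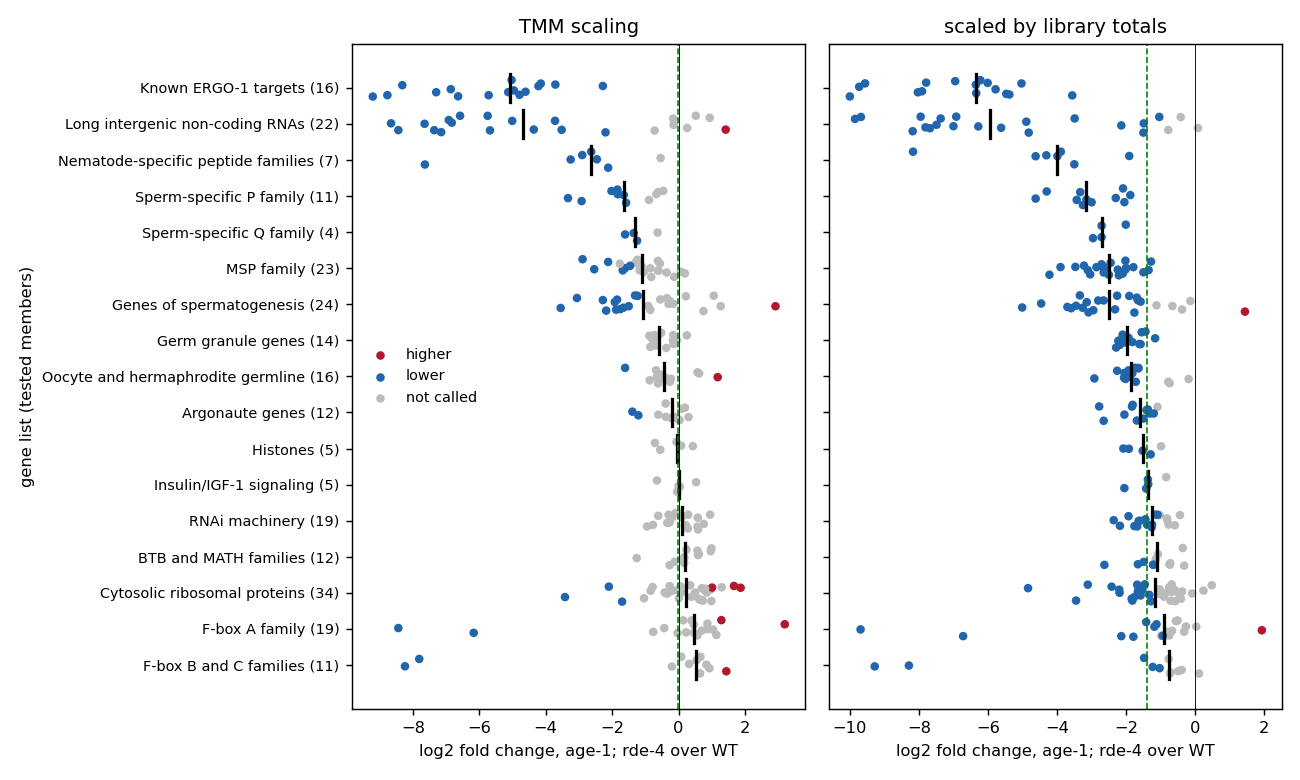
Log2 fold changes of age-1; rde-4 over WT (x axis) for each tested member of the 17 gene lists with at least 4 tested members (y axis, number tested in brackets), with TMM scaling (left) and library totals (right), colored by call, with a black bar at the list median, a thin black line at 0 and a green dashed line at the median of all tested genes (-0.02 and -1.40). ERGO-1 targets have a median of -5.08 and lincRNAs of -4.69, nsp genes of -2.63, the other sperm lists lie between -1.65 and -1.07 and the remaining lists between -0.58 and 0.54 with TMM.

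Germline lists that are not specific to sperm differed less from the typical gene. Of 14 tested germ granule genes, 0 were called with edgeR (0 higher and 2 lower at an unadjusted p of 0.05, and 0 with DESeq2), although 13 of the 14 values were negative and the median was -0.58. pgl-3, which encodes a component of the granules, held 19, 37 and 15 counts in age-1; rde-4 libraries, against 78, 116 and 103 counts in WT libraries (log2 fold change -0.85, edgeR adjusted p = 0.1). Its libraries did not overlap as counts, nor did the summed counts of all genes with no opposite gene. With library totals pgl-3 was called lower (-2.22, edgeR adjusted p = 2.0e-05), where 63.3% of all tested genes were. Genes of the oocyte and the hermaphrodite germline had 1 higher and 1 lower of 16, beside 14.8% and 12.8% of all tested genes, with a median of -0.45, and sums of 181, 256 and 269 counts in age-1; rde-4, against 474, 768 and 773 in WT. The gene called lower was tra-1, the transcription factor that ends the sex determination pathway, with 4, 5 and 12 counts, against 56, 35 and 54 in WT (-1.61, edgeR adjusted p = 0.016). That call was lost without the first WT library or without the first or second age-1; rde-4 library. The gene called higher was cpg-2, an eggshell proteoglycan, at 1.18 (edgeR adjusted p = 0.03), which was -0.19 with library totals (edgeR adjusted p = 0.74).

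Of 12 tested Argonaute genes of 23, 2 were lower and 0 higher, beside 12.8% lower over all tested genes, with a median of -0.18, and DESeq2 called 1 lower. The 2 were alg-4 and alg-3, the Argonautes of the germline that makes sperm. alg-4, at III:9887209-9891424, held 11, 10 and 6 counts in age-1; rde-4 libraries, against 51, 71 and 45 counts in WT libraries (log2 fold change -1.39, SE 0.41, edgeR adjusted p = 0.014). alg-3, at IV:11704246-11708264, held 17, 9 and 6 counts, against 46, 78 and 55 in WT (-1.21, SE 0.43, edgeR adjusted p = 0.042). In both genes every double mutant library was below every WT library, as it also was in csr-1 and wago-4, which were not called. The summed counts of all genes with no opposite gene were separated in the same way, at 81440 to 91085, against 172921 to 254025 in WT. Both calls depended on single libraries, since alg-4 lost its own without the first WT library or without the second or the third age-1; rde-4 library, and alg-3 kept its own only when the first age-1; rde-4 library was the one left out. csr-1, the Argonaute of germline-expressed genes, held 47, 40 and 43 counts in age-1; rde-4, against 67 to 189 counts in WT (-0.23, edgeR adjusted p = 0.70). rde-1, the Argonaute of the response to foreign double-stranded RNA, held 4, 11 and 10 counts, against 8, 23 and 21 in WT, with overlapping libraries, and was at 0.19 with TMM (edgeR adjusted p = 0.8) and -1.20 with library totals (edgeR adjusted p = 0.044). ergo-1 was below the filter, with 2, 4 and 6 counts in age-1; rde-4, against 5, 20 and 10 counts in WT.

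Other genes of the RNAi machinery gave no calls in 19 tested (edgeR, 1 higher and 0 lower at an unadjusted p of 0.05, and 0 with DESeq2), with a median of 0.09 that turned to -1.26 with library totals. The 5 tested genes of insulin/IGF-1 signaling of 28 gave none either (0 at an unadjusted p of 0.05, and 0 with DESeq2), with a median of 0.00, or -1.37 with library totals. daf-16, the FOXO transcription factor on which the long life of age-1 mutants depends, held 4, 6 and 9 counts in age-1; rde-4 libraries, against 12, 19 and 15 counts in WT libraries (log2 fold change -0.04, edgeR adjusted p = 0.95, and -1.42 with library totals, edgeR adjusted p = 0.017). Counts of daf-2, the receptor, and daf-18, the phosphatase that opposes AGE-1, were too low to test.

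Lists of somatic tissues held few antisense reads. None of the 19 intestine and vitellogenin genes or the 22 neuronal genes passed the filter, with sums of 15 to 26 and 28 to 36 counts in age-1; rde-4 libraries, against 31 to 63 and 37 to 60 counts in WT libraries. Antisense reads were thus seen over both lists in every library, and 17 of 19 and 21 of 22 members had at least 1 count. In body wall muscle, unc-15, which encodes paramyosin, held 4, 65 and 62 counts in age-1; rde-4, against 4, 25 and 8 counts in WT (log2 fold change 3.05, edgeR adjusted p = 0.0013). Its libraries overlapped, and the first age-1; rde-4 library was as low as the lowest WT library. Collagens, the proteins of the cuticle, had 2 of 3 tested genes higher, beside 14.8% of all tested genes. These were col-127 at 2.4 and col-71 at 1.35, and neither was called with library totals (1.15 and 0.06). In col-127 and in col-71 the raw counts overlapped between the strains. Both calls were lost in several sets that left out 1 library, and the summed counts of the 177 collagen genes overlapped between the strains.

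Among genes of the cytosolic ribosome, 3 of 34 tested were higher and 3 lower, fewer than the 14.8% and 12.8% of all tested genes, with a median of 0.22 that turned to -1.16 with library totals. rpl-41.2 had the lowest value of the list, with 7, 5 and 2 counts in age-1; rde-4 libraries, against 81, 154 and 130 counts in WT libraries (log2 fold change -3.42, SE 0.46, edgeR adjusted p = 1.4e-05). rps-27 held 35, 32 and 22 counts, against 13, 30 and 24 in WT, and rpl-12 held 13, 25 and 12 counts, against 5, 15 and 12 in WT. Both were called higher with TMM (1.67 and 1.87) and not with library totals (0.24 and 0.48), and their libraries overlapped. Without the second age-1; rde-4 library, 1 gene was called lower. None of the 5 tested histone genes was called (edgeR, 0 at an unadjusted p of 0.05, and 0 with DESeq2).

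Few genes with no opposite gene gained antisense reads under every scaling, 13 of the 129 called higher with TMM, a count that the downward shift of the other scalings lowers. C44B7.11, a protein-coding gene at II:6894177-6897540, held 10064, 9084 and 15178 counts in age-1; rde-4 libraries, against 1452, 2722 and 1039 counts in WT libraries. It rose by 3.98 on the log2 scale (SE 0.46, edgeR adjusted p = 3.7e-06), and by 2.56 with library totals (edgeR adjusted p = 7.7e-08). F22F1.10, a non-coding RNA gene at X:8148907-8148973, held 668, 759 and 823 counts in age-1; rde-4, against 152, 191 and 84 counts in WT (3.6). F08F1.16, another short non-coding RNA gene at X:8409475-8409553, held 230, 397 and 270 counts, against 37, 103 and 45 in WT (3.54). In these 3 genes all double mutant libraries exceeded all WT libraries. The pseudogene C06E4.22 held 77, 335 and 325 counts in age-1; rde-4, against 40, 93 and 51 counts in WT (3.22), where the raw counts of the first double mutant library fell among those of WT. The F-box pseudogene fbxa-193 held 40, 84 and 42 counts, against 20, 8 and 11 in WT (3.20). It held 125, 92 and 97 counts in rde-4 libraries and 80, 46 and 145 in age-1 libraries. Among coding genes, nhr-32, a nuclear hormone receptor, was at 2.59, F02C9.1 at 2.60 and AC7.3 at 2.53, and all 3 were also called with library totals, at 1.26, 1.22 and 1.12. However, nhr-32 held 12, 60 and 61 counts in age-1; rde-4, against 14, 21 and 15 in WT. The raw count of its first double mutant library was thus below every WT library, while F02C9.1 and AC7.3 did not overlap. In a fit of all 12 libraries, no gene named here as higher was called against rde-4. Their values ran from -0.12 for fbxa-193 to 1.71 for C06E4.22. Against age-1, fbxa-193, F02C9.1 and AC7.3 were not called (0.72, 0.44 and 0.70, edgeR adjusted p = 0.2, 0.36 and 0.17). The other genes named were called higher than in age-1, from 2.56 for C44B7.11 to 4.56 for C06E4.22. The genes with no opposite gene that were called had median counted widths of 1171 bases for those higher and 924 bases for those lower, against 1579 bases for all 2573 tested. Genes under 100 bases were 3.88% of those higher, 0.489% of those lower and 0.505% of those tested, and F22F1.10 and F08F1.16 are among them, with 67 and 79 bases.

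At loci opposite structural RNA genes the rises were large and read the other strand. Over the whole table, C05G6.5, opposite the snRNA gene C05G6.4 at IV:624064-624270, had the largest rise, with 168, 272 and 329 counts in age-1; rde-4 libraries, against 19, 21 and 15 counts in WT libraries (log2 fold change 4.98, SE 0.44, edgeR adjusted p = 8.4e-07, and 3.65 with library totals). F15H9.9, among the snRNA loci with the most counts, was at 3.76. Opposite the rRNA gene rrn-3.1, F31C3.14 held 110336, 162433 and 215935 counts in age-1; rde-4, against 37407, 20755 and 18080 counts in WT (3.77, SE 0.53, edgeR adjusted p = 2.4e-05). Every double mutant library exceeded the highest WT library. Among tRNA loci, M01E10.5 held 47538, 24272 and 22794 counts in age-1; rde-4, against 7212, 10539 and 5707 counts in WT (3.28), and K08B5.4 and F27D9.9 had almost the same counts. tRNA, snRNA and rRNA genes are present in near-identical copies, so that several of these loci count 1 set of reads.

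The 3 miRNA loci with most counts were not called. T09B4.14, opposite mir-1, held 668150, 657616 and 779234 counts in age-1; rde-4 libraries, against 848146, 812396 and 802001 counts in WT libraries. At K01F9.6, which lies opposite mir-80, there were 654741, 551685 and 579116 counts, against 723225, 588241 and 529183 in WT. F16A11.6, opposite mir-71, held 455995, 502741 and 340449 counts, against 435974, 437639 and 566380 in WT. Their values were 0.96, 1.13 and 1.05 with TMM and -0.39, -0.21 and -0.32 with library totals, so their direction turned with the scaling. Over 31 tested loci opposite miRNA genes, 4 were higher and 2 lower with TMM (median 0.70), and 0 were higher and 8 lower with library totals (median -0.62). With TMM these were 12.9% and 6.45%, not above the 14.8% and 12.8% of all tested genes. With library totals they were 0% and 25.8%, below the 8.10% and 63.3% of all tested genes. The 2 lower with TMM were F39E9.7 and ZK384.7, named after their values were seen. Loci opposite snoRNA genes had 2 of 24 higher with TMM (8.33%) and 13 lower with library totals (54.2%), beside 14.8% and 63.3% of all tested genes. The 3 with most counts, Y39G10AR.26, H09I01.4 and F01D5.14, were not called with TMM.

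The single mutants placed these differences among the strains. In a fit of all 12 libraries, 965 of 5843 tested genes were higher (16.5%) and 1206 lower (20.6%) in age-1; rde-4 than in age-1, while 25 were higher (0.428%) and 7 lower (0.120%) in age-1; rde-4 than in rde-4. With library totals the last 2 counts were 13 and 641, with a replicate block 80 and 16, and 552 and 224 genes passed an unadjusted edgeR p of 0.05. The number higher than in age-1 was 371 to 522 without any single age-1 or age-1; rde-4 library, the first or second WT library or the first rde-4 library. The comparisons of each strain with the double mutant share the double mutant's libraries, so their calls are not independent.

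For the ERGO-1 targets, the fit of 12 libraries gave medians of -5.19 in age-1; rde-4, -4.67 in rde-4 and -0.72 in age-1, each over WT. Summed counts were 25, 32 and 16 in age-1; rde-4 libraries, 48, 48 and 105 in rde-4 libraries, 2179, 2150 and 2741 in age-1 libraries and 3212, 2023 and 3616 in WT libraries. Of 17 tested, 16 were lower in age-1; rde-4 than in age-1, beside 20.6% of all tested genes. Against rde-4, 0 were called in either direction, where only 0.428% of all tested genes were higher and 0.120% lower. The values of both strains that carry rde-4(ne301) lay far below those of the strains with a functional rde-4. K02E2.6 held 1, 1 and 0 counts in age-1; rde-4, 4, 4 and 6 in rde-4, 560, 597 and 700 in age-1 and 724, 553 and 910 in WT. linc-59 held 0 counts in each rde-4 library and 779, 447 and 324 in age-1 libraries.

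In the sperm lists, the age-1 strain stood above WT. Summed MSP counts were 263, 126 and 96 in age-1; rde-4 libraries, 318, 238 and 222 in rde-4 libraries, 1865, 1139 and 1480 in age-1 libraries and 547, 998 and 789 in WT libraries. In the P family they were 497, 252 and 274 in age-1; rde-4, 406, 334 and 291 in rde-4, 4209, 3113 and 3283 in age-1 and 1395, 2030 and 1849 in WT. The 2 strains without functional RDE-4 overlapped in both lists, and the age-1 libraries exceeded all others in both. Of 31 MSP genes tested in the fit of 12 libraries, 26 were lower in age-1; rde-4 than in age-1, with a median of -1.82, and 0 were called against rde-4, with a median of 0.11. Of 11 P family genes, 11 were lower than in age-1 and 0 were called against rde-4. Over all tested genes, 20.6% were lower than in age-1, and only 0.428% were higher and 0.120% lower than in rde-4. spe-10 held 8, 6 and 7 counts in age-1; rde-4, 9, 7 and 6 in rde-4, 230, 388 and 225 in age-1 and 57, 106 and 84 in WT. alg-4 held 11, 10 and 6 counts in age-1; rde-4, 23, 11 and 23 in rde-4, 128, 170 and 123 in age-1 and 51, 71 and 45 in WT.

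**Figure D4:**
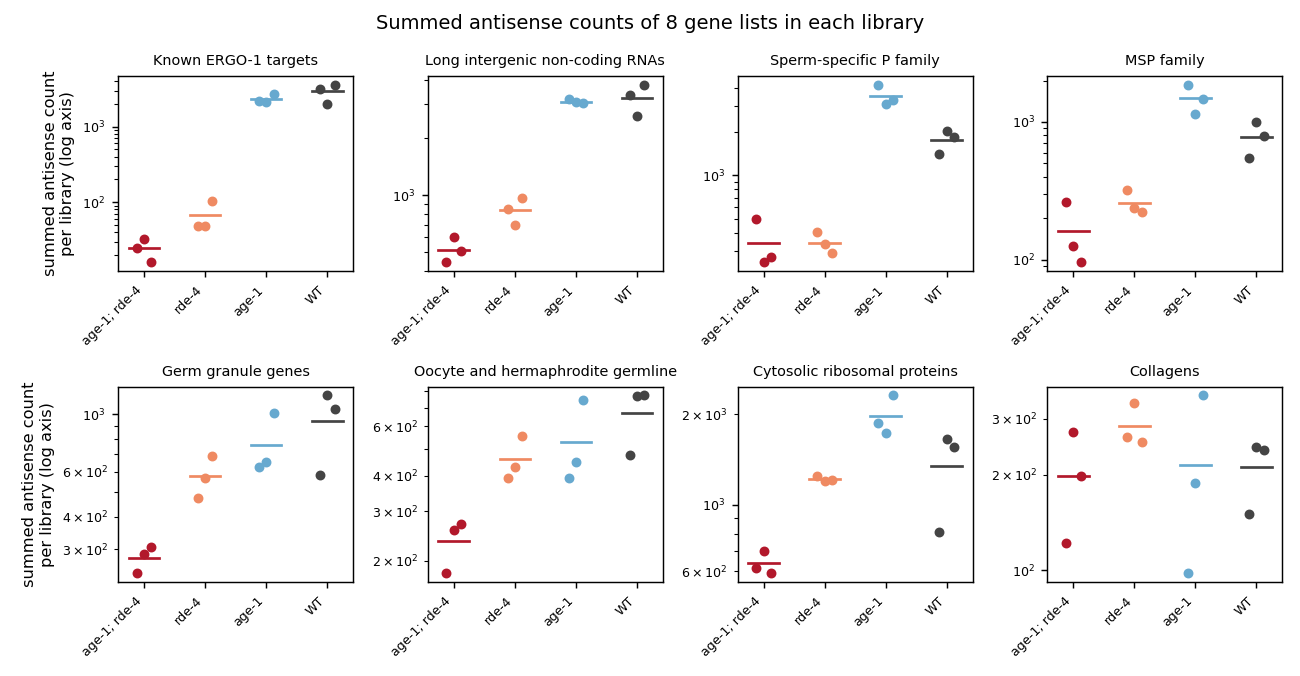
Summed antisense counts per library (log axis) of 8 gene lists in age-1; rde-4, rde-4, age-1 and WT, with points for the 3 libraries of each strain and lines for their means. ERGO-1 targets sum to 16 to 32 counts in age-1; rde-4 and 48 to 105 in rde-4, against 2150 to 2741 in age-1 and 2023 to 3616 in WT, and MSP and P family sums are highest in age-1.

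Germline lists outside sperm had the following sums. Germ granule genes summed to 243, 287 and 305 counts in age-1; rde-4 libraries, 474, 565 and 692 in rde-4 libraries, 624, 656 and 1007 in age-1 libraries and 584, 1183 and 1049 in WT libraries. Oocyte and hermaphrodite germline genes summed to 181, 256 and 269 counts in age-1; rde-4, 394, 432 and 553 in rde-4, 392, 450 and 742 in age-1 and 474, 768 and 773 in WT. In both lists all 3 age-1; rde-4 libraries lay below every library of the other 3 strains, and so did the counts of all genes with no opposite gene, at 81440 to 91085 in age-1; rde-4, against at least 118502 in every other library. Per count of genes with no opposite gene, the ratio of age-1; rde-4 to WT was 0.763 for germ granule genes, with no overlap (exact permutation p = 0.1), and 0.887 for oocyte genes, with overlap (exact permutation p = 0.4). By gene, 0 germ granule and 0 oocyte genes were called against rde-4, where only 0.428% of all tested genes were higher and 0.120% lower.

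Against rde-4, loci opposite snRNA genes were the largest class among the genes called higher. Of the 25, 10 lay opposite snRNA genes, 3 opposite rRNA genes, 1 opposite a miRNA gene, 1 opposite another gene, 8 opposite no gene and 2 were not placed. No locus opposite a tRNA gene was among them. The snRNA and rRNA loci can count the same reads, so they are not separate sets of evidence. C05G6.5 held 168, 272 and 329 counts in age-1; rde-4 libraries, 83, 71 and 52 in rde-4 libraries, 20, 19 and 20 in age-1 libraries and 19, 21 and 15 in WT libraries, and differed from rde-4 by 2.69 on the log2 scale (edgeR adjusted p = 1.0e-03). F31C3.14 held 43556, 42817 and 61583 counts in rde-4 and 17475, 42871 and 17293 in age-1, below the 110336 to 215935 of age-1; rde-4. Among genes called lower, T03D3.5 held 6, 4 and 5 counts in age-1; rde-4, against 43, 41 and 79 counts in rde-4 (-2.58). Leaving out any single rde-4 library, or the second or the third age-1; rde-4 library, gave 2 to 4 genes called higher and 1 to 4 called lower.

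linc-18 had the largest absolute interaction between the mutations. It held 0 counts in all 3 age-1; rde-4 libraries, 70 to 124 in rde-4 libraries, 63, 52 and 70 in age-1 libraries and 20, 39 and 28 in WT libraries. It was at least 12.3-fold lower in age-1; rde-4 than in WT and lower than in rde-4 (edgeR adjusted p = 1.0e-06), and all 3 rde-4 libraries held more reads than any WT library. It lies on chromosome I opposite sdz-14, so the reads present in the other 9 libraries may belong to either gene. The interaction, which tests on the log scale whether losing RDE-4 had another effect in age-1 than in WT animals, was called for linc-18 and for 8 other genes of 5843 (1 lower, 0.0171%, and 8 higher, 0.137%), or 4 lower and 20 higher with a replicate block, while 308 higher and 207 lower passed an unadjusted edgeR p of 0.05. Of the 8 higher, 6 lay opposite snRNA genes, and leaving out any single library left 0 or 1 gene called higher and 1 to 3 called lower.

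**Figure D5:**
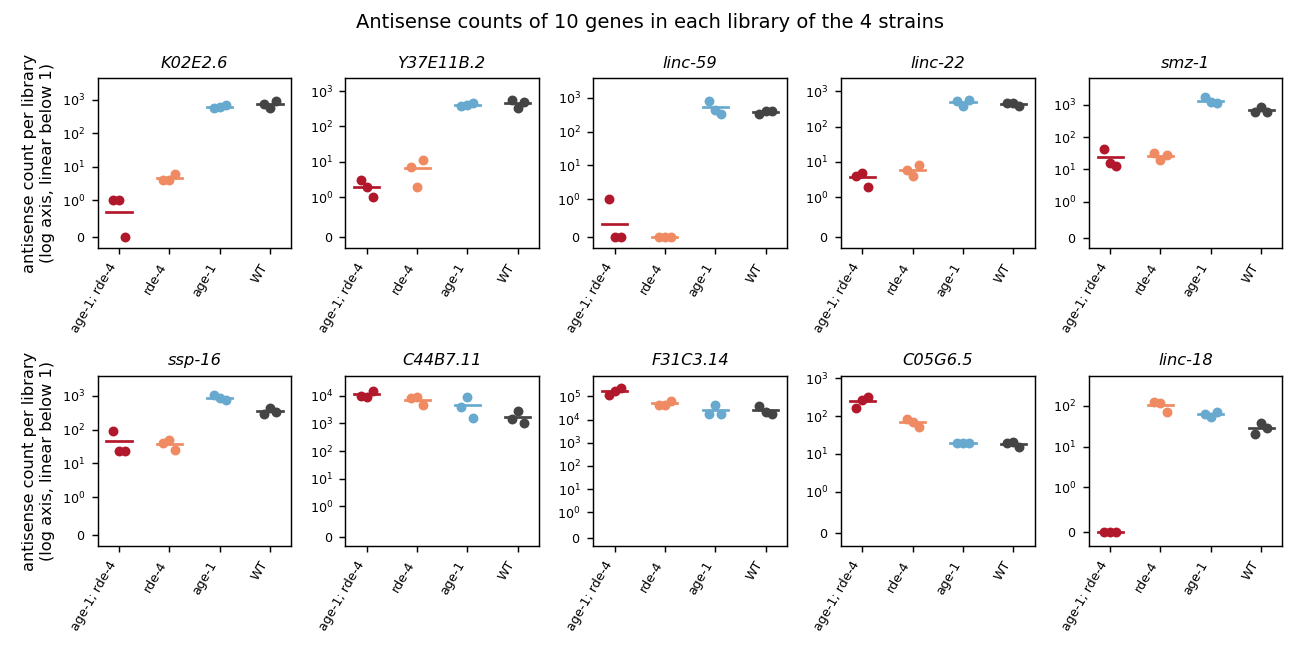
Antisense counts per library (log axis, linear below 1) of 10 genes in age-1; rde-4, rde-4, age-1 and WT, with points for libraries and lines for means. K02E2.6, Y37E11B.2, linc-59, linc-22, smz-1 and ssp-16 are low in both strains with rde-4(ne301), C44B7.11, F31C3.14 and C05G6.5 are highest in age-1; rde-4 on average, and linc-18 is at 0 in age-1; rde-4 only.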

How the data were processed

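Small RNA of 18 to 40 bases with a 5′ monophosphate was sequenced from whole young adults. The authors mapped reads to genome WBcel235 (release WS283, RefSeq annotation without piRNAs) with Bowtie through QuasR, allowing at most 50 hits, and deposited raw counts of antisense reads per gene, not pooled. The sources used here do not give tool versions. Genes were placed by the RefSeq gene table (31418 matched) and the Ensembl 115 annotation (31386 matched), 852 were not placed, and each was classed by the exon on its opposite strand, if any (22489 had none).

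Genes were compared over the 6 libraries by the two-sided quasi-likelihood test of edgeR 4.0.16 (R 4.3.3) with TMM factors and filterByExpr at its minimum count of 10, and p-values were adjusted by Benjamini-Hochberg over all tested genes, with a threshold of 0.05. Contrasts with single mutants and the interaction used 1 fit of 12 libraries. The SE derives from the F statistic. Totals and shares were compared with exact permutation tests, two-sided, with Benjamini-Hochberg adjustment over classes or lists. A list value per count of genes with no opposite gene sums all members of the list. Members that have an opposite gene are thus in the sum but not in the counts it is divided by. Folds against 0 counts take 3 counts for the whole group, and folds with 1 to 3 counts have exact 95% intervals, which cover counting error only. The fits were tested on simulated data drawn from a profile shared by all strains, apart from the genes set to change. That test therefore did not cover the difference in composition seen here.

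Alternatives were other scalings (RLE, library totals, counts opposite miRNA genes), other filters, DESeq2 1.42.0, a replicate block, the fit of 12 libraries, only genes with no opposite gene, and leaving out each library. Named genes were the 8 largest rises and falls past the threshold among genes with no opposite gene (at least 10 CPM in the higher group, scaled libraries not overlapping), the 3 largest over all genes, the 3 most significant tested members of each list, the 3 loci with most counts of each structural RNA class, the 6 largest interactions and 18 genes of the pathways. The members and the 22 lists were chosen with earlier results of these data known. Other list members, and the genes said to be so, were named after their values were seen. P-values measure only the spread between the samples that the labels call biological replicates.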

Additional observations from a re-analysis of the deposited data

Results flagged for a closer look

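The effect of losing RDE-4 differed between the age-1 and the WT background for 9 genes, by the interaction term of the edgeR fit of 12 libraries. For linc-18 it was -10.77 on the log2 scale (SE 1.04, edgeR adjusted p = 2.8e-06), with 0 counts in all 3 age-1; rde-4 libraries. For Y110A2AL.1 it was 7.73 (SE 1.45, edgeR adjusted p = 0.03), with 6, 9 and 8 counts in age-1; rde-4, 0 in each rde-4 library, 13, 2 and 16 in age-1 and 16, 9 and 21 in WT. C05G6.5 was at 2.81, F08G2.17 at 2.93, F15H9.9 at 2.97, Y54G9A.14 at 3.08, Y47H9A.5 at 3.21 and W07G1.17 at 3.27, and these 6 loci lie opposite snRNA genes. R05D7.8, whose opposite strand was not placed, was at 3.08. F08G2.17 held 330, 548 and 636 counts in age-1; rde-4, 201, 180 and 231 in rde-4, 57, 41 and 54 in age-1 and 82, 50 and 93 in WT, and W07G1.17 held 353, 549 and 618 in age-1; rde-4, 211, 166 and 207 in rde-4, 48, 47 and 42 in age-1 and 98, 53 and 91 in WT. The snRNA loci are near-identical copies and can count the same reads.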

How the results depend on the processing

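With library totals, 322 genes were higher and 2516 lower in age-1; rde-4 than in WT, with counts opposite miRNA genes as the scale 361 and 1826, and with only genes that have no opposite gene in the fit 212 and 296. DESeq2 gave 524 and 450, RLE scaling 586 and 516, no filter 563 and 637, a stricter filter 557 and 506, a replicate block 595 and 531 and the fit of 12 libraries 594 and 511, and leaving out a library 512 to 647 and 372 to 589. Same-numbered libraries of age-1; rde-4 and WT did not deviate together (r of -0.0166, -0.0808 and -0.00911 across 3977 genes). In the fit of 12 libraries, same-numbered age-1; rde-4 libraries correlated at 0.0665 to 0.235 with those of rde-4 and at -0.157 to 0.182 with those of age-1, so the numbers were not taken to pair them, while rde-4 and WT correlated at 0.167 to 0.366 and age-1 and WT at 0.194 to 0.344. Against rde-4, library totals gave 13 higher and 641 lower, a replicate block, chosen after seeing the data, 80 and 16, and leaving out a library 2 to 29 and 1 to 10. Against age-1 library totals gave 227 and 2270, and leaving out a library 371 to 954 higher and 1204 to 1645 lower. For the interaction library totals gave 2 and 62, the replicate block 20 and 4, and leaving out a library 0 to 1 and 1 to 3. The log2 ratio of the share opposite other genes ranged from -0.04 to 0.23 when a library was left out, that of body wall muscle from -0.33 to 0.45 and that of collagens from -0.58 to 0.03. Taken per count of genes with no opposite gene, these lists turned positive on the log2 scale: RNAi machinery 0.15, insulin/IGF-1 signaling 0.13, intestine 0.23, neurons 0.65, collagens 1.24, ribosomal proteins 0.30, histones 0.20 and BTB and MATH genes 0.55. With library totals dct-9 was at -1.08, cpg-2 at -0.19, H09I01.4 at -0.92 and rde-1 at -1.20, each reversed. Over 98 tested named genes and all settings, 1389 of 1507 values kept direction and side of the threshold, 66 lost the call, 48 gained it and 4 turned, counting a turn only where 1 of the 2 values was called. Depth limits the genes with few counts in age-1; rde-4, whose folds have wide intervals. The cause of these changes was not tested.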
